A study of Caenorhabditis elegans with 2 samples.

Results

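The genes of small nucleolar RNAs (snoRNAs), small nuclear RNAs (snRNAs) and ribosomal RNAs (rRNAs) of Caenorhabditis elegans were examined for summits of ChIP-seq peaks of CEH-43. All 495 nuclear genes of these biotypes in the Ensembl annotation of WBcel235 were taken: 346 snoRNA, 129 snRNA and 20 rRNA genes out of 46890 nuclear genes of every kind. None lay within 100 bp of a tRNA gene, so none was left out on that ground, and 2 mitochondrial rRNA genes were set aside. Of the members, 186 were intron-hosted, lying wholly within an intron of a protein-coding gene on the same strand, and the other 309 are called independent. Of these 309, 206 lay outside every protein-coding gene, and the rest overlapped one without meeting that definition. A gene was counted when a peak summit lay within 200 bp of it. In the thresholded peak list, 64 of the 495 genes had such a summit, which is 12.9%, against 2.46% of all nuclear genes (1152 of 46890).

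The samples were 2 biological replicates of 1 group, mixed-stage embryos of both sexes with a labelled age of 3 hours, collected by egg bleaching. Their strain, OP699, carries the unc-119 allele tm4063 and the transgene wgIs699, which holds ceh-43 fused to TY1, EGFP and 3xFLAG tags together with a rescuing copy of unc-119; both replicates share all of these. Chromatin of whole embryos was sonicated and precipitated, so the peaks pool all cells of the embryos. The sample description gives the antibody as one to green fluorescent protein (GFP), whereas the antibody label reads ceh-43, and whether native CEH-43 was also precipitated cannot be told from them. An untagged strain, the control alignment and signal tracks were not analysed here. The authors deposited a thresholded list of 998 peaks, of which 975 were nuclear, a relaxed list of 30000 peaks drawn from both replicates, and relaxed lists of 29979 peaks for replicate 1 and 26127 for replicate 2. Ranks below count all peaks of a list by the authors' signal value, mitochondrial peaks included. With 1 group and lists without read counts, no test over samples was possible, read depth is unknown, and the 95% intervals (exact, Clopper-Pearson) cover counting error over genes only.

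CEH-43 is a homeodomain protein of the Distal-less family, whose members recognise TAATT-type sites and act at genes read by RNA polymerase II. snoRNAs guide the chemical modification of rRNA in the nucleolus, with box C/D snoRNAs directing methylation and box H/ACA snoRNAs directing conversion of uridine to pseudouridine. snRNAs form the core of the spliceosome, and in nematodes a further set, the spliced leader RNAs SL1 (sls-1 genes) and SL2 (sls-2 genes), donates the leader that is joined to the start of many messenger RNAs. tRNA genes and 5S rRNA genes are read by RNA polymerase III from promoters inside the gene, which in tRNA genes consist of an A box and a B box. snoRNAs can be processed from an intron of a host gene or made from a promoter of their own.

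A shared pair of short words stood before part of the snoRNA genes with strong summits, and 6 examples are shown with 2 genes that differ from them. Each run holds 110 bases before the gene and its first 10 bases, read on the gene's strand from the RefSeq copy of WBcel235. In the first 5, snoRNA genes among the highest in signal, capitals mark TGGNNNAG followed on the same strand by GTTCNANNC, with the starts of the words 25 to 80 bases apart. These words resemble the A box and B box of tRNA genes, were chosen after the sequences at the summits had been read, and overlap in part with the word GTTCGA. In the sixth, T06C12.16, capitals mark TGGNNNAG and only the first letters of the other word, GTTCNA. In W05B2.8, the snRNA gene of highest signal outside the sls-2 family, and in K02F6.11, a snoRNA gene with no summit in the relaxed list of both replicates, capitals mark CGGAACCC, the word of 8 letters most often shared upstream of independent snRNA genes. The positions are chrII:11960788-11960907, plus strand for W03C9.9, chrV:11314148-11314267, plus strand for T03F7.8, and chrV:19643178-19643297, minus strand for Y43F8C.22. They are chrIV:7574012-7574131, plus strand for F32E10.10, chrII:5105222-5105341, minus strand for C04G6.12, and chrV:15873917-15874036, minus strand for T06C12.16. They are chrIII:10989569-10989688, plus strand for W05B2.8 and chrII:2556789-2556908, minus strand for K02F6.11.
W03C9.9: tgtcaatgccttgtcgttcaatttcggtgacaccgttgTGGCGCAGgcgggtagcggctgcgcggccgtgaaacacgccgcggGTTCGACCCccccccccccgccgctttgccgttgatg
T03F7.8: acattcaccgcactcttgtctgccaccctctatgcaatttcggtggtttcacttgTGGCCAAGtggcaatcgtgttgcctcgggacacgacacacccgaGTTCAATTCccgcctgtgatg
Y43F8C.22: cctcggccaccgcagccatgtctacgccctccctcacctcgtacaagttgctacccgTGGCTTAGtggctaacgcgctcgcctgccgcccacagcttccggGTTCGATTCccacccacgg
F32E10.10: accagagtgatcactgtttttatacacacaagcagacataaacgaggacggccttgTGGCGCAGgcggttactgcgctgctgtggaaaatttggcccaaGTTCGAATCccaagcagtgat
C04G6.12: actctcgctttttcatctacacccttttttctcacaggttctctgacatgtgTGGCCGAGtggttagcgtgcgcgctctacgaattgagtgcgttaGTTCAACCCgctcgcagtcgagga
T06C12.16: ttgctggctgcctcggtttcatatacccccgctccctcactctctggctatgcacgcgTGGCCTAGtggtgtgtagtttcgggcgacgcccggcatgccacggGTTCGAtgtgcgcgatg
W05B2.8: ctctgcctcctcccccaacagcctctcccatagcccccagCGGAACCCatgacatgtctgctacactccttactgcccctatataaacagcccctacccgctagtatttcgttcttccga
K02F6.11: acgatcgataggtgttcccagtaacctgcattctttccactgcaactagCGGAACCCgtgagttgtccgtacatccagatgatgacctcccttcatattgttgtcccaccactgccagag

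snoRNA genes held most of the small RNA gene summits. In the thresholded list, 55 of 346 snoRNA genes had a summit within 200 bp (15.9%, 95% interval 12.2 to 20.2%), against 9 of 129 snRNA genes (6.98%, 3.24 to 12.8%) and 0 of 20 rRNA genes, a count that allows a share of up to 16.8%. Beside the background of 2.46%, the same list gave 27.3% for tRNA genes (167 of 612), 3.71% for genes of the biotype ncRNA, 3.03% for protein-coding genes, 2.30% for miRNA genes and 0.0586% for piRNA genes. The intervals of snoRNA and snRNA genes lay wholly above the background, and that of rRNA genes included it. That background includes 15363 piRNA genes, of which 9 had a summit. The snRNA interval included the 3.71% of ncRNA genes, so the higher snRNA share depends on the genes set beside it. Longer genes offer more room for a summit, and protein-coding genes had a median length of 2027 bases, against 130 for snoRNA genes and 109 for snRNA genes. Counted within 200 bp of the 5′ end alone, the shares were 15.9% for snoRNA genes and 6.98% for snRNA genes, against 1.08% for protein-coding genes and 1.53% for all nuclear genes. Of the 300 snoRNA genes more than 200 bp from any protein-coding start site, 48 had a summit (16.0%, 12.0 to 20.6%).

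**Figure D1:**
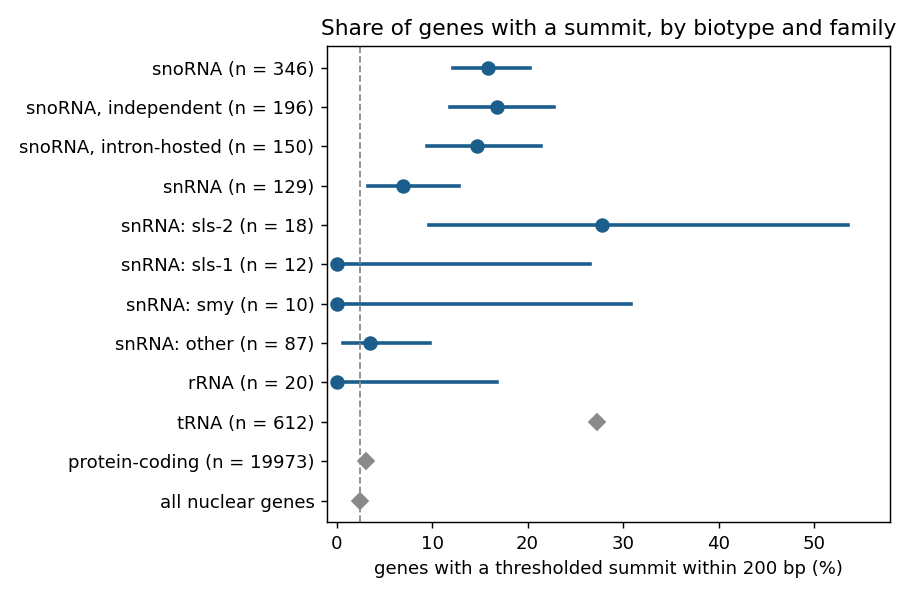
Share of genes (%) with a thresholded summit within 200 bp, by biotype and family. Blue points are shares of small RNA genes with exact 95% intervals as bars, grey diamonds are other genes, drawn without intervals, and the dashed line is the 2.46% of all nuclear genes. snoRNA genes as a whole stood at 15.9% and sls-2 genes at 27.8%, while sls-1, smy and rRNA genes stood at 0.

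The difference between small RNA genes and all nuclear genes was narrower in the relaxed lists, which hold weaker peaks. For snoRNA genes its direction depended on the biotype set beside them. In the relaxed list from both replicates, 140 of 346 snoRNA genes (40.5%, 35.2 to 45.8%) and 39 of 129 snRNA genes (30.2%, 22.5 to 38.9%) had a summit, against 30.9% of all nuclear genes and 61.6% of tRNA genes. The 30.9% includes 15363 piRNA genes, which stood at 7.08%. By the same measure, protein-coding genes, which are longer, stood at 49.6% and genes of the biotype ncRNA at 29.8%. In replicate 1 the shares were 35.8% of snoRNA and 28.7% of snRNA genes, against 31.7% of all nuclear genes. In replicate 2 they were 37.0% of snoRNA and 23.3% of snRNA genes, against 28.9% of all nuclear genes. Shares of snRNA genes in the relaxed lists were thus near or below the background, and no rRNA gene had a summit in any list. Protein-coding genes stood at 50.2% in replicate 1 and 47.3% in replicate 2. Counted within 200 bp of the 5′ end alone in the relaxed list from both replicates, they stood at 15.4%. That window is narrower than the one behind the shares above, so the 15.4% cannot be set against them.

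The summits lay at one side of the snoRNA genes, just before the 5′ end. Of the 55 snoRNA genes with a thresholded summit, 50 had it upstream of the first base of the gene and 49 had it 1 to 100 bp upstream. The median was at −48 bp, with an interquartile range of −61.5 to −34 bp. Independent and intron-hosted snoRNA genes had nearly the same position, with medians of −49 bp (n = 33) and −47 bp (n = 22). The position held in the replicates' own lists, with medians of −43.5 bp in replicate 1 (n = 54) and −50 bp in replicate 2 (n = 55). The exceptions were B0334.12, whose summit lay 117 bp downstream of the 5′ end, Y38F2AR.14 at 54 bp, C51F7.4 at 42 bp, T10B9.11 at 15 bp, T24H7.6 at its first base, and C01B10.48, whose summit lay 189 bp upstream. Among the 9 snRNA genes the summits were scattered, from −106 to 167 bp with a median of 58 bp, and 2 of 9 were upstream.

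**Figure D2:**
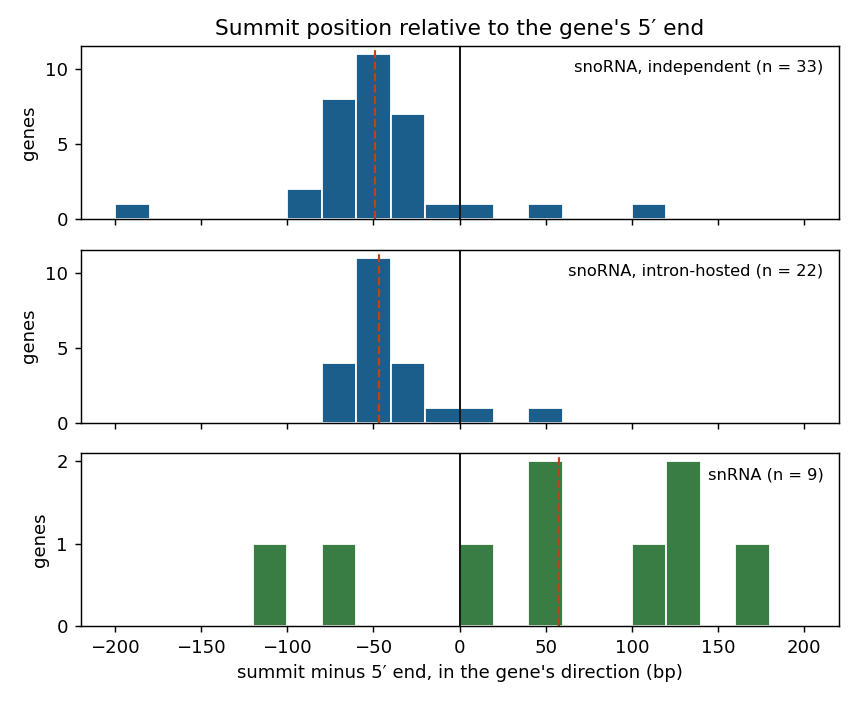
Number of genes by distance (bp) of the thresholded summit from the 5′ end, counted in the gene's direction in bins of 20 bp, for independent snoRNA genes, intron-hosted snoRNA genes and snRNA genes. The black line marks the 5′ end and the dashed line the median, which was −49, −47 and 58 bp from top to bottom. Both snoRNA panels peak at about the same place before the gene.

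The snoRNA gene of highest signal was W03C9.9 (chromosome II, 11960898 to 11960959, plus strand), an independent gene with the box C/D letters TGATGA and CTGA at its ends. Its peak had a signal of 1271 and rank 9 in the thresholded list, and the gene ranked 17 in replicate 1 and 8 in replicate 2. C51F7.3 and C51F7.4 lie next to each other on chromosome V, at 12303708 to 12303783 and 12303599 to 12303693, and shared 1 summit of rank 13 (signal 1196), which ranked 21 in replicate 1 and 9 in replicate 2. That summit lay 67 bp upstream of C51F7.3, which sits in an intron of frm-7, a gene for a FERM domain protein, and inside C51F7.4. The 64 genes therefore stood for 63 distinct summits. T06C12.16 (rank 17, signal 1010) ranked 24 in replicate 1 and 11 in replicate 2. ZK265.10 (rank 19, signal 960) ranked 23 in replicate 1 and 14 in replicate 2, and T03F7.8 (rank 20, signal 948) ranked 28 and 13 in the same order. Each of these genes stood among the strongest sites of both replicates.

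Of the 40 genes of highest signal, 37 were snoRNA and 3 were snRNA genes, and the signal of the 40 did not go below 280, which was rank 213 of the thresholded list. In replicate 2 all 40 ranked 192 or better, and in replicate 1 they ranked 558 or better. Of the 40, 26 were independent genes. Besides those named above, the independent snoRNA genes were T02E1.9 (rank 26), H09I01.2 (48), F32E10.10 (51), B0334.12 (63), C04G6.12 (65), C46C2.8 (67), ZK484.9 (71), T19B4.8 (82), T27A3.9 (83) and C27H5.9 (91). After these by rank came C41C4.11 (101), ZK643.9 (106), Y23H5B.10 (130), W01C9.6 (146), Y75B12B.12 (155), F30H5.4 (166), F12F6.11 (184), Y53F4B.48 (202) and T04A8.17 (206). T02E1.9, for example, had a signal of 728 and ranked 29 in replicate 1 and 22 in replicate 2. F30H5.4 differed more between the replicates, at rank 390 in replicate 1 and 106 in replicate 2.

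The intron-hosted snoRNA genes among the 40 lay in a range of hosts. ZK994.7 (rank 21, signal 895) lies in an intron of pxn-1, which encodes a peroxidasin of the extracellular matrix, and ranked 26 in replicate 1 and 15 in replicate 2. D1046.6 (rank 32, signal 683) lies in an intron of cfim-2, a gene for a factor of messenger RNA 3′ end processing, 87 bp from a protein-coding start site. Y43F8C.22 (rank 33, signal 674) lies in Y43F8C.7 and ranked 38 in replicate 1 and 25 in replicate 2. C27H6.5 (rank 70) lies in unc-41, a gene of synaptic vesicle recycling, M106.6 (73) in mix-1, which encodes a condensin subunit, and F55A11.10 (78) in F55A11.6. C10C6.8 (79) lies in catp-8, a P-type ATPase gene, F38E11.14 (102) in cng-3, a cyclic nucleotide-gated channel gene, and Y38F2AR.14 (107) in Y38F2AR.12. C05D2.15 (108) lies in madf-11, W10C8.17 (165) in pop-1, the TCF factor of Wnt signalling, and K11C4.6 (213) in unc-70, which encodes beta-spectrin. The other 24 genes with a thresholded summit had lower signal. The independent snoRNA genes among them, beside those named further on for their letters, were K02C4.8 (rank 361), Y53F4B.47 (438), F39B2.14 (511), H04D03.5 (533), F59C6.15 (654), C01B10.48 (656) and T26A8.6 (853). T26A8.6, the weakest, had a signal of 149 and ranked 1525 in replicate 1 and 951 in replicate 2. The intron-hosted ones were Y71F9AM.7 (368) in cogc-3, F11A10.9 (370) in rbm-34, Y37E3.20 (380) in pcyt-2.1, C14C10.8 (395) in ril-2, W08G11.6 (425) in W08G11.3 and Y71D11A.7 (633) in acsd-1. Of the 55 snoRNA genes with a thresholded summit, 31 had it within the span of a protein-coding gene and 10 within a gene of the biotype ncRNA. These 2 classes overlap, and 22 had it within no other annotated gene.

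The shares of independent and intron-hosted snoRNA genes differed by less than their counting error. Independent genes had a thresholded summit in 33 of 196 cases (16.8%, 11.9 to 22.8%) and intron-hosted genes in 22 of 150 (14.7%, 9.43 to 21.4%), a difference of 2.17 percentage points with a 95% interval of −5.82 to 9.73 (Newcombe). Over all biotypes the difference was −0.820 points (−7.34 to 5.07), with 39 of 309 independent genes (12.6%) and 25 of 186 intron-hosted genes (13.4%). Both intervals include 0 and also differences of several points in either direction. Of the independent snoRNA genes, 21 of 124 outside every protein-coding gene had a thresholded summit (16.9%), and 12 of 72 overlapping one (16.7%). In the relaxed list from both replicates, 42.9% of independent and 37.3% of intron-hosted snoRNA genes had a summit. Among snRNA genes, 6 of 93 independent genes (6.45%) and 3 of 36 intron-hosted genes (8.33%) had a thresholded summit.

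The share of snoRNA genes with a summit was higher among short genes, a division chosen after the values had been seen. Of the 93 snoRNA genes under 100 bases, the range typical of box C/D snoRNAs, 29 had a thresholded summit (31.2%, 22.0 to 41.6%), against 26 of the 253 genes of 100 bases or more (10.3%, 6.82 to 14.7%). The genes with a thresholded summit had a median length of 91 bases (62 to 238, n = 55), against 132 bases for those without one (54 to 344, n = 291). Among the genes under 100 bases, 21 of 52 independent genes (40.4%, 27.0 to 54.9%) and 8 of 41 intron-hosted genes (19.5%, 8.82 to 34.9%) had a summit. Among the longer genes the order was the other way, with 12 of 144 independent (8.33%) and 14 of 109 intron-hosted genes (12.8%). The relaxed list from both replicates gave 55.9% of the shorter and 34.8% of the longer genes. The word pair marked in the sequences above stood before 11 of the 93 shorter and 7 of the 253 longer genes. The divisions by length and by word pair thus overlap, and their parts were not separated. By letters in the gene, 4 of 15 genes with TGATGA near the 5′ end and CTGA near the 3′ end, the box C and D letters, had a thresholded summit (26.7%). Of the 75 genes with ACA near the 3′ end, as in box H/ACA snoRNAs, 16 had one (21.3%), and of the 256 genes with neither 35 had one (13.7%). These letter rules are strict and left most of the genes without a class.

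The word pair shown above was found before 18 of the 346 snoRNA genes, and 16 of these 18 had a thresholded summit (88.9%, 65.3 to 98.6%), against 39 of 328 snoRNA genes without the pair (11.9%, 8.59 to 15.9%). All 18 had a summit in each of the 3 relaxed lists. Since the words were read from the sequences at the summits, this is a description and gives no independent evidence. The pair was searched from 150 bp upstream to 20 bp inside the gene, on the gene's strand, and 0.115% of the same windows at all nuclear genes held it (54 of 46890), with 0.0701% at protein-coding genes. With the same search run over the gene itself and 20 bp on each side, 60.0% of tRNA genes held the pair (367 of 612). Seen from the summits, 16 of 55 snoRNA genes with a thresholded summit had the pair (29.1%), against 2 of 291 without one (0.687%). The pair was present before 9 independent and 7 intron-hosted genes with a summit, and 1 gene of each kind without one. Most snoRNA genes with a thresholded summit, 39 of 55, thus did not have the pair. Of the 55, however, 63.6% had TGGNNNAG on either strand, with or without the other word, and 47.3% had GTTCNANNC. The same words were present at 28.5% and 6.19% of the 291 snoRNA genes without a summit, and at 18.0% and 4.86% of all nuclear genes.

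**Figure D3:**
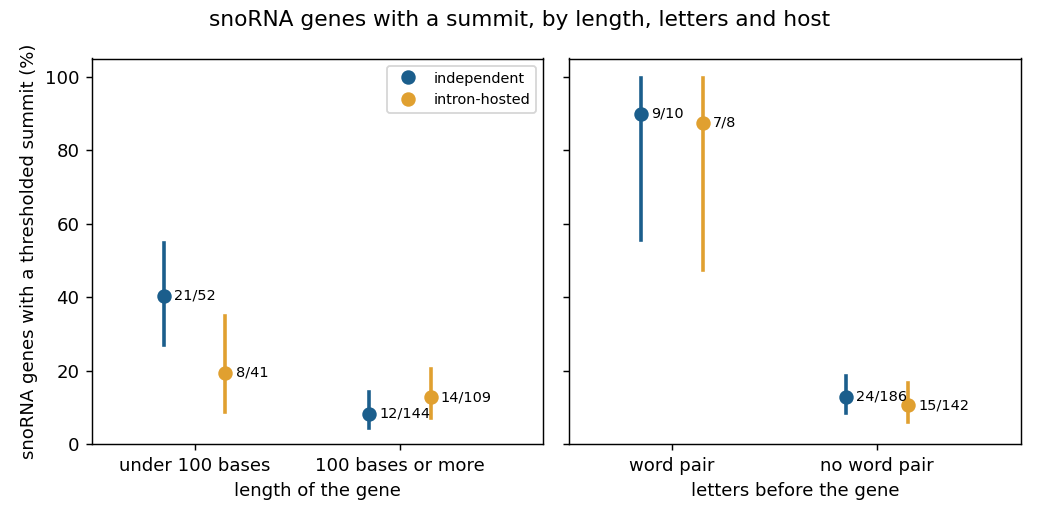
Share of snoRNA genes (%) with a thresholded summit, by length of the gene (left) and by the word pair before the gene (right), for independent (blue) and intron-hosted (orange) genes. Bars are exact 95% intervals, and the numbers beside the points are genes with a summit over all genes of the class. The shares were 40.4% and 19.5% for genes under 100 bases, and 9 of 10 and 7 of 8 genes with the pair had a summit.

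In the 16 genes with a summit, TGGNNNAG began at a median of −59.5 bp from the 5′ end (−99 to −53 bp) and GTTCNANNC at −14 bp (−70 to −9 bp), with a median of 44 bases between their starts (29 to 52). The summit lay between the words, or on them, in 11 of 16 genes and within 50 bp of their middle in 15 of 16. After W03C9.9, C51F7.3, T03F7.8 and Y43F8C.22, the genes with the pair were F32E10.10, C04G6.12, M106.6, F55A11.10, T19B4.8, Y75B12B.12, F30H5.4, T08B2.13 (rank 220), T24H7.6 (253), T10B9.11 (258), ZK546.18 (267) and Y39G10AR.24 (332). The genes with the pair but no thresholded summit were R166.7, in an intron of the kinase gene mnk-1, at rank 1869 of the relaxed list from both replicates, and Y59E1B.14 at rank 8466.

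The homeodomain word TAATTR (R is A or G, so TAATTA or TAATTG, searched on both strands) was uncommon at these sites. In the window from 150 bp upstream to 20 bp inside the gene, it was present at 2 of 55 snoRNA genes with a thresholded summit (3.64%), against 14.4% of snoRNA genes without one and 24.0% of all nuclear genes. Within 50 bp of the summit itself, 2 of the 56 thresholded peaks at snoRNA genes held TAATTR (3.57%), against 40.5% of the 751 peaks at no small RNA or tRNA gene. At the 10 peaks near snRNA genes it was present in 2, and at 3.14% of the 159 peaks near tRNA genes. GTTCGA, a word of the B box type, was present within 50 bp of 26.8% of the summits at snoRNA genes and 44.7% of those at tRNA genes, against 4.13% of the summits elsewhere. GAGAGA, a repeat word, was present at 10.7% of the summits at snoRNA genes, against 15.0% of those elsewhere, whereas in the window before the gene it was present at 23.6% of snoRNA genes with a summit, against 17.9% of those without one and 5149 of all 46890 nuclear genes. No match says only that these letters are not in the window.

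tRNA pseudogenes, which the exclusion of tRNA genes did not cover, overlapped 4 snoRNA genes in the annotation that RefSeq gives of the same assembly. D1046.6 (ranks 33 in replicate 1 and 24 in replicate 2) and T08B2.13, which lies in fars-1, a gene for a phenylalanyl-tRNA synthetase subunit, had thresholded summits. The others did not: Y59E1B.14 had rank 8466 and F19H8.6 had rank 5948 in the relaxed list from both replicates. T08B2.13 and Y59E1B.14 are also among the genes with the word pair. Over the genome, 3 of 209 tRNA pseudogenes had a thresholded summit within 200 bp (1.44%). No snoRNA gene with a thresholded summit lay closer than 943 bp to a tRNA gene.

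The replicates ranked the small RNA genes with a thresholded summit in a like order. Of the 64 genes, 63 had a summit within 200 bp in both replicates, and the exception was C01B10.48, which had none in replicate 1. By the best summit within 200 bp of the gene in each replicate, 56 of the 64 genes (49 of the 55 snoRNA and 7 of the 9 snRNA genes) stood among the 998 strongest peaks of both replicates, against 571 of 975 nuclear thresholded peaks (58.6%), for which the replicate summit had to lie within 100 bp of the thresholded one. Across the 63 genes the ranks had a Spearman rho of 0.893, against 0.531 across the 932 nuclear peaks found in both lists. The 2 sets also differed in signal, with a median of 354 at the peaks near snoRNA genes and 185 over all nuclear thresholded peaks. Peaks of like signal were not compared. The rank comparisons are descriptions over genes and peaks that share libraries, and the thresholded list was itself made from both replicates. The snoRNA genes stood higher in replicate 2, with a median rank of 110, than in replicate 1, with a median of 152, and 42 of 54 ranked better in replicate 2. Of the 932 nuclear thresholded peaks found in both lists, 54.9% ranked better in replicate 2. The summits of a snoRNA gene in the lists of replicates 1 and 2 lay a median of 17 bp apart (at most 100 bp), and those of a snRNA gene 46 bp (at most 193 bp). Ranks differed most at some of the weaker sites: H04D03.5 ranked 295 in replicate 1 and 2168 in replicate 2, and Y71D11A.7, in an intron of acsd-1, ranked 2000 in replicate 1 and 371 in replicate 2.

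**Figure D4:**
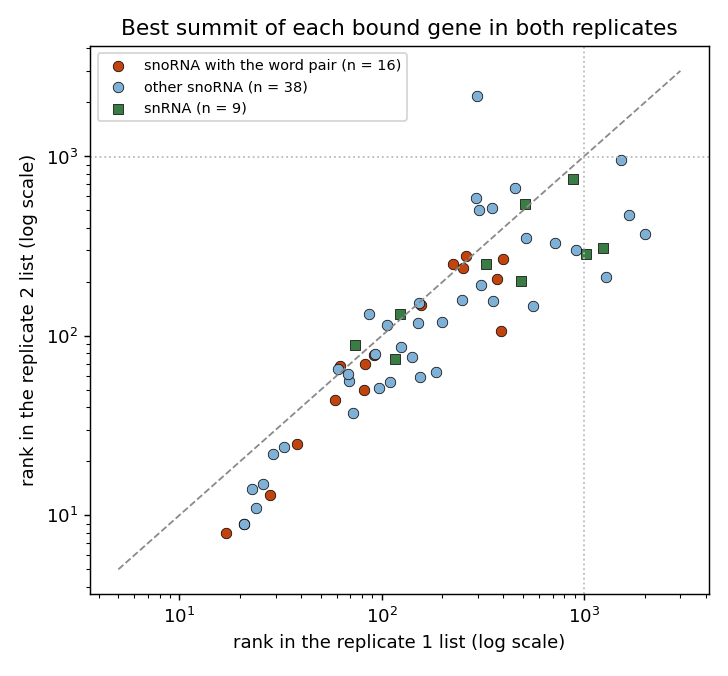
Rank of the best summit of each of the 63 small RNA genes with a thresholded summit and a summit in both replicates, in the list of replicate 1 (horizontal, log scale) and of replicate 2 (vertical, log scale); lower ranks are stronger peaks. The dashed line marks equal ranks and the dotted lines rank 998. The genes with the word pair rank 396 or better in replicate 1, and most snoRNA genes lie below the line of equal ranks.

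Peaks at snoRNA genes were gathered at the top of the thresholded list. Of the 20 nuclear peaks of highest signal, 9 had their summit within 200 bp of a snoRNA gene and 1 within 200 bp of a tRNA gene. Of the first 100, 27 were at snoRNA genes, 2 at snRNA genes and 25 at tRNA genes. With the nuclear peaks split by signal into 4 equal groups from the strongest down, 39, 10, 6 and 1 were at snoRNA genes, 56 in all, since a gene can have more than 1 peak. Their median signal was 354 (149 to 1271), against 228 at tRNA genes (n = 159), 227 at snRNA genes (n = 10) and 177 at the 751 other nuclear peaks. Summits at tRNA genes spread further down the list, with 23 of the 244 peaks in the weakest group. The signal is the authors' own value per peak, and it was compared here only within the list.

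**Figure D5:**
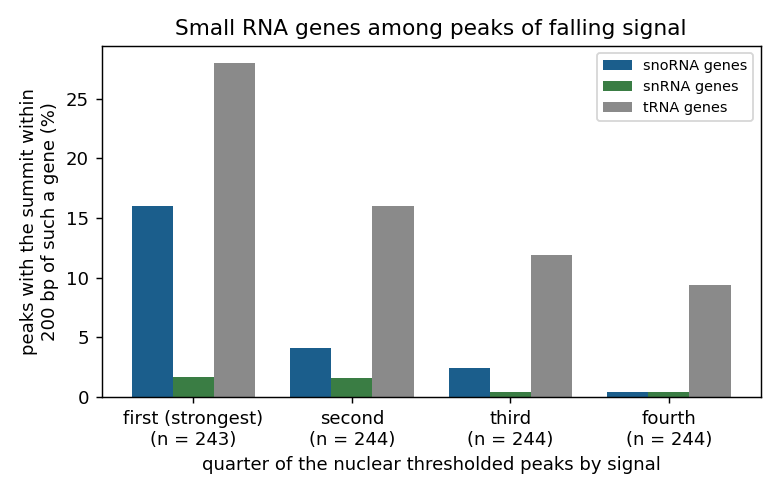
Share of nuclear thresholded peaks (%) whose summit lay within 200 bp of a snoRNA, snRNA or tRNA gene, in 4 equal groups of the list from the highest signal (left) to the lowest (right). Blue bars, for snoRNA genes, stand at 16.0% in the strongest group and 0.410% in the weakest, and grey bars, for tRNA genes, at 28.0% and 9.43%.

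Every autosome had snoRNA genes with a thresholded summit, and X had none. On X the count was 0 of 33, which allows a share of up to 10.6%, against 11.1% on III (6 of 54, 95% interval 4.19 to 22.6%), 17.6% on I (13 of 74, 9.70 to 28.2%), 18.3% on II (13 of 71, 10.1 to 29.3%), 18.6% on IV (11 of 59, 9.69 to 30.9%) and 21.8% on V (12 of 55, 11.8 to 35.0%). The interval of X overlapped those of I, II, III and IV, and the difference, singled out after the values were seen, was not tested. Yet X held 211 of the 975 nuclear peaks (21.6%), and 80 of its 276 tRNA genes had a summit (29.0%). In the relaxed list from both replicates the snoRNA genes of X were in the range of the autosomes, with 14 of 33 (42.4%), against 27.8% on III and 47.3% on V, the lowest and the highest autosome. C53B7.8, the best-ranked snoRNA gene of X, stood at rank 1269 of that list, outside the thresholded 998, with rank 5125 in replicate 1 and 750 in replicate 2. On X 1 snoRNA gene had the word pair (3.03%), and 4 of the 33 were intron-hosted (12.1%), against 35.1% to 66.7% on the autosomes. snRNA genes with a thresholded summit were on I (2 of 16), II (3 of 16) and III (4 of 13). There were 0 of 41 on IV and 0 of 40 on V, which allow shares of up to 8.60% and 8.81%, and 0 of 3 on X. The genes of V include the 12 sls-1 genes. Of all nuclear genes, 4.73% had a thresholded summit on I, 3.15% on II, 5.05% on III, 0.868% on IV, 1.92% on V and 4.50% on X. The intervals of the snRNA counts of 0 on IV and V, and of the snoRNA count of 0 on X, include these shares.

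Of the 9 snRNA genes with a thresholded summit, 5 were SL2 spliced leader genes, or 4 of 8 without sls-2.9, which lies near a tRNA gene. Of 18 sls-2 genes, 5 had a thresholded summit (27.8%, 9.69 to 53.5%), against 0 of 12 sls-1 genes, 0 of 10 smy genes, which encode the SmY RNAs associated with trans-splicing, and 3 of 87 other snRNA genes (3.45%, 0.717 to 9.75%). The exact intervals of these counts of 0 reach 26.5% for sls-1 and 30.8% for smy genes. The sls-1 genes lie with 5S rRNA genes in a repeat array on V, in which reads fit many copies. The part of that in their count of 0 was not tested. sls-2.4 was the highest, with signal 445 and rank 80, and ranked 74 in replicate 1 and 89 in replicate 2, but its summit lay 137 bp beyond the 5′ end of a gene of 110 bases. sls-2.2 (rank 127, ranks 123 in replicate 1 and 132 in replicate 2) had its summit at 111 bp and sls-2.1 (rank 257, ranks 330 and 251) at 58 bp. sls-2.9 (rank 398) lies 132 bp from a tRNA gene, with its summit 106 bp upstream, so the summit cannot be assigned to one of them. sls-2.8 (rank 757, ranks 883 and 745) lies 85 bp from a protein-coding start site. The other sls-2 genes were absent from the relaxed list from both replicates or stood at rank 8700 (sls-2.10) and beyond. Thus sls-2 genes were either in the thresholded list or far below it.

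The remaining snRNA genes with a thresholded summit were W05B2.8, C28A5.7, F54D8.7 and sup-6. W05B2.8 (rank 93, signal 420, ranks 116 in replicate 1 and 74 in replicate 2) lies in an intron of the dynein heavy chain gene dhc-4, with its summit 10 bp inside the gene. C28A5.7 (rank 291, ranks 490 and 202) lies in C28A5.6, 19683 bp from ceh-43, the gene that the transgene also carries. The labels do not state the stretch held by the transgene, so extra copies of this site cannot be told apart from stronger signal at the native one. W05B2.8 and C28A5.7 belong to 14 snRNA genes of identical sequence. Of these, 7 were in the pooled relaxed list, where 30.2% of all snRNA genes had a summit. Among the 7, K09B11.13 and K09B11.14 shared a summit. F54D8.7 (rank 466, ranks 1238 and 310) is 1 of 3 identical genes. The labels do not state how reads that fit several copies were placed, so the values of these copies are uncertain. sup-6 (rank 653, ranks 510 and 540), a gene known from suppressor mutations as a U1 snRNA gene, lies in F58G1.7 with its summit at 167 bp, just beyond its 165 bases. sup-39, known in the same way, had no thresholded summit and rank 6707 of the pooled relaxed list. The annotation used here names no further snRNA gene by spliceosomal class. CGGAACCC was present, on either strand, at 4 of the 9 snRNA genes with a thresholded summit and 22.5% of the 120 without one, against 0.222% of all nuclear genes. It was also present at 21 snoRNA genes without the word pair. Of these, 2 had a thresholded summit (9.52%) and 12 had one in the pooled relaxed list (57.1%). Among all 328 snoRNA genes without the pair, the shares were 11.9% and 37.2% in the same order. The exact intervals of the 9.52% and the 57.1% include these shares.

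The rRNA genes had no summit in any of the 4 lists. The array of 5S rRNA and SL1 genes on V (17115903 to 17132107), with 26 members, held 0 summits in each list, where its length would hold 4.84 of the 30000 relaxed peaks if they were spread evenly. The array of the large rRNA genes on I (15062083 to 15071033) held 0, against 2.68. The nearest relaxed summit to a 5S rRNA gene was 884 bp from rrn-4.15, which lies outside the array. These arrays are repeats in which reads fit many copies, and the part of that in the absence of summits was not tested.

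The genes just below the thresholded list were led by smy-2 among snoRNA genes, a gene named for an SmY RNA but listed with the biotype snoRNA, at rank 1015 of the relaxed list from both replicates, with ranks 1080 in replicate 1 and 1472 in replicate 2. F07A11.15 (rank 1092), C53B7.8 (1269), F56A11.14, in an intron of the ephrin gene efn-4 (1331), and Y74C9A.6 (1589) came next. F56A11.14 had no summit within 200 bp in replicate 1 and rank 13994 in replicate 2. The best snRNA genes without a thresholded summit were C52E4.8 (1214), Y17G9A.85 (2653), F38E11.10 (3312), R07E5.16 in mpc-1, 1 of the 14 identical copies (3370), and F08H9.10 (4740). Among the 85 snoRNA genes with a relaxed summit only, that summit lay at a median of 30 bp downstream of the 5′ end, from −186 to 391 bp, and 25 had it 1 to 100 bp upstream. The narrow position before the gene was thus seen at the thresholded summits, with 49 of 55, and less at the weaker ones, with 25 of 85.

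Of 40 protein genes that make or use these RNAs, 3 had a thresholded summit within 1000 bp upstream of the start site (7.50%, 95% interval 1.57 to 20.4%), against 2.74% of all protein-coding genes (547 of 19973). By role, 0 of 15 genes for transcription of small RNAs had one, among them snpc-4 of the snRNA activating complex, brf-1 of the polymerase III factor TFIIIB and the polymerase III subunit gene rpc-1. Of 7 snoRNP and nucleolar genes 1 had one, nola-3 (rank 954, signal 142, summit at −649 bp), which encodes a small protein of H/ACA particles. Of 18 snRNP and trans-splicing genes 2 had one: snr-1 (rank 168, signal 319, summit at −424 bp), an Sm protein gene, and prp-8 (rank 755, signal 156, summit at −303 bp), the central protein of the spliceosome. In the relaxed list from both replicates the counts were 8 of 15, 6 of 7 and 11 of 18, together 25 of 40 (62.5%, 45.8 to 77.3%), against 32.3% of all protein-coding genes. snr-1 ranked 109 in replicate 1 and 209 in replicate 2.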

How the data were processed

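CEH-43::GFP ChIP-seq peaks came from 2 replicates of 1 group. According to deposited notes, the authors derived a relaxed list per replicate from its alignment and a shared control alignment, another from the pooled replicates, and the thresholded list by an irreproducible discovery rate step. The values used were the signal value of each peak that the authors deposited and the summit position; no source used here gives the aligner, peak caller, cutoffs or the scale of the signal, so ranks within a list were used. The lists are on ce11, which is the assembly WBcel235, per the labels.

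Genes were those of Ensembl release 115, and unique names and tRNA pseudogenes were taken from RefSeq on the same assembly by WormBase identifier (495 of 495 members matched). Summits were joined to genes within 200 bp with Python 3.11.15, pandas 2.3.3, numpy 2.4.6, scipy 1.17.1 and, for intervals of differences, statsmodels 0.14.6, and the join was tested on simulated data. A member was intron-hosted when it lay wholly in an intron of a protein-coding transcript on its strand, and independent otherwise. Words were searched on both strands, the word pair on the gene's strand. Read depth is unknown, and counting intervals, with the limits for counts of 0, are exact at 95%. A gene of the transcription list, snpc-1.5, matched no gene.

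The members and lists were chosen with earlier results of these data known, and the word pair, the length division and the tRNA pseudogenes were chosen after seeing the values. Genes were named by a rule: the 40 members of highest signal, the 5 best-ranked per biotype without a thresholded summit, the best of each spliced leader class, hosts, and machinery genes with a thresholded summit. Others with a thresholded summit, and exceptions, were named after their values were seen. The alternatives concerned the window, the peak list, the members and the host definition.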

Additional observations from a re-analysis of the deposited data

How the results depend on the processing

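Across 13 alternatives each, the counts of small RNA and snoRNA genes with a thresholded summit stayed within 1.5 times the reported 64 and 55, and that of rRNA genes stayed at 0. Keeping tRNA neighbours, which is counted among the alternatives, could change no result, since no member had been left out on that ground. The lowest count of snoRNA genes was 48, without members within 200 bp of a protein-coding start site, and the highest 63, with a window of 500 bp. The count of snRNA genes moved past that limit in 1 of 13 alternatives: 5, against 9, with thresholded peaks kept only where each replicate had a summit within 100 bp of theirs among its own strongest 998. Counted within 200 bp of the gene instead, 7 of the 9 were among them. With a single replicate's 998 strongest peaks, the lowest and highest counts were 58 and 66 for all members, 51 and 57 for snoRNA genes, 7 and 9 for snRNA genes, and 0 in both for rRNA genes. The difference between independent and intron-hosted snoRNA genes stayed inside its reported interval in 16 alternatives, but its sign changed to −0.816 points when hosts on either strand counted. That over all biotypes was 0.0940 points without members within 100 bp of a tRNA pseudogene and 0.597 without members of identical sequence, so neither sign held throughout. With the second word cut to GTTCNA, 18 of 24 snoRNA genes with the pair had a summit (75.0%), and with GTTCGA 13 of 17 (76.5%). These word settings, the pseudogene setting and the identical-copy setting were chosen after seeing the data. No paired analysis was possible because the series has 1 group and the lists give no counts per replicate. Peak lists without depth cannot show whether a gene without a summit is unbound.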
